A study of Mus musculus with 8 samples.

Results

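DNA methylation was described at 9 genes of T cell costimulation and adhesion, Cd28, Ctla4, Icos, Pdcd1, Cd5, Cd6, Cd2, Thy1 and Cd226, out of 21755 protein-coding genes on the mouse autosomes and X. The genes were chosen for their function with earlier results of these data known, and each was taken with its GENCODE body and 20 kb on either side (mm10), called its window below. The windows held 4988 CpGs covered in every library, of 18684786 in the whole series. The data are whole genome oxidative bisulfite sequencing (WGoxBS) of naive CD4+ CD62L+ T cells and of CD43- B cells from spleens of C57BL/6J mice aged 6 to 8 weeks. WGoxBS adds an oxidation step before bisulfite conversion, commonly used to keep 5-hydroxymethylcytosine from reading as methylated. The study's methods describe the readout as covering both marks, and levels here do not separate them. The labels give 8 samples in 4 groups of 2 (B cells of females, B cells of males and likewise 2 groups of T cells), with no treatment named, but both samples of a group name 1 deposited file, so each group was taken as 1 library with no standard deviation. Each file name carries a number that matches 1 sample title of its group. Whether the file pools both samples or holds 1 of them is not otherwise given in the sources used here. Each replicate was described as a pool of cells from several mice, so no value belongs to 1 animal. The male and the female library of a cell type were the only replication. The fit carried a sex term, which left 1 residual degree of freedom, and p-values of tiles and promoters rest on a dispersion shared over all regions rather than on the spread of each region.

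These genes encode surface proteins that set how a T cell responds once its antigen receptor is engaged. CD28 gives the classic costimulatory signal when it binds CD80 or CD86, CTLA-4 competes for the same ligands and restrains the cell, ICOS supports helper T cells, and PD-1 (Pdcd1) is an inhibitory receptor. CD5 and CD6 are paired scavenger-receptor family proteins that tune receptor signalling, CD2 and THY1 are adhesion molecules of the T cell surface, and CD226 is an activating receptor for nectin-family ligands. CpG methylation at promoters and enhancers is commonly low where a gene is in use in a cell lineage and high where it is not. RNA was not analysed here.

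Across the 9 windows, 433 tiles of 1 kb could be tested (at least 5 CpGs and 20 reads in every library), and 167 of them, 38.6%, differed between B and T cells. A tile was called when its Benjamini-Hochberg adjusted p in the quasi-likelihood test of edgeR was under 0.05 and the mean of both B cell levels differed from the mean of both T cell levels by at least 20 percentage points. Over all 1530528 tested tiles 3.17% were called. Of the called tiles in the windows 159 were higher in B cells and 8 were higher in T cells, where the series as a whole had 2.36% and 0.812% of tiles called in these directions. The median difference was 10.9 points over the windows and 0.788 points over all tested tiles. Single CpGs showed the same contrast: 335 of the 4988 CpGs (6.72%) were at 80% or more in both B cell libraries and at 20% or less in both T cell libraries, against 0.214% of CpGs in the series, and 8 CpGs (0.160%) had the opposite arrangement, against 0.0847% in the series.

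**Figure D1:**
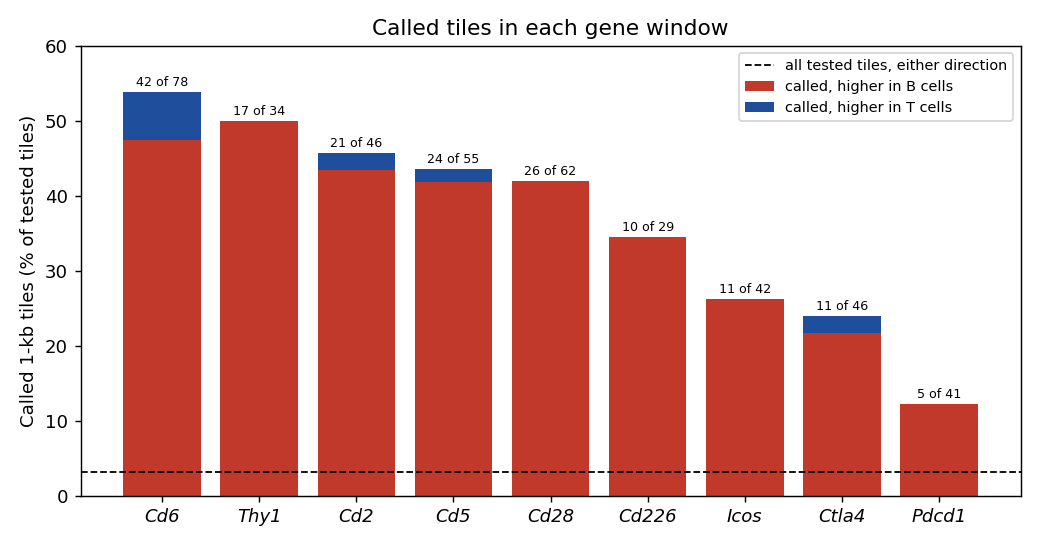
Share of the tested 1-kb tiles in each gene window that were called between B and T cells (percent, bars from 0), split by direction, with the counts above each bar and the share of all tested tiles as a dashed line. Each window lies above the dashed line at 3.17%, from 5 of 41 tiles at Pdcd1 to 42 of 78 at Cd6.

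Ordered by called tiles per 100 tested, the members ran from Cd6 (53.8, 42 of 78 tiles) through Thy1 (50.0, 17 of 34), Cd2 (45.7, 21 of 46), Cd5 (43.6, 24 of 55), Cd28 (41.9, 26 of 62), Cd226 (34.5, 10 of 29), Icos (26.2, 11 of 42) and Ctla4 (23.9, 11 of 46) to Pdcd1 (12.2, 5 of 41). These counts take both directions: 5 of the Cd6 tiles and 1 each at Cd5, Cd2 and Ctla4 were higher in T cells. Higher in B cells were 37 of 78 tiles at Cd6 and 17 of 34 at Thy1, so the first place of Cd6 depends on counting both. Neighbours in this order differ by few tiles and were not tested against each other. The Cd28, Ctla4 and Icos windows, which follow each other on chromosome 1, had 48 of 150 tiles called, the Cd5 and Cd6 windows on chromosome 19 had 66 of 133. Counts moved with the tile definition, and the Pdcd1 window had 16 of 41 tiles past the adjusted p alone, where 9.35% of all tested tiles passed it.

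Reads at CpGs totalled 280919817 to 354634149 per library, with a median of 14 to 17 reads per listed autosomal CpG. Promoters of genes that define the cells separated as the labels say: over Cd3e, Cd3d, Cd3g, Cd247, Cd4 and Lck the levels were 70.2 to 94.9% in B cells and 0.566 to 9.87% in T cells, and Ms4a1 (CD20) was at 12.7 and 13.8% in B cells and at 95.2 and 94.4% in T cells. Promoters of the natural killer genes Ncr1 and Klrb1c were at 78.9 to 90.7% in all libraries. Of the myeloid genes, Csf1r was at 88.2 to 91.5% in all libraries, Itgam at 72.4 and 73.6% in B cells and 60.2 and 59.7% in T cells (adjusted p = 0.00229, edgeR), and Lyz2 at 48.4 and 47.2% in B cells and 63.0 and 66.2% in T cells (adjusted p = 0.000934, edgeR), so both differed by less than 20 points. The Cd8a and Cd8b1 promoters were 28.8 and 60.6 points lower in T cells, and the T cell preparation had been depleted of CD8a-positive cells and of regulatory T cells. Of the regulatory T cell genes, Foxp3 lies on the X chromosome, so its female and male levels are not directly comparable. Its promoter was at 56.3 and 35.2% in B cells and 44.5 and 8.49% in T cells. The cell types were 11.8 points apart for the female libraries and 26.7 for the male ones. The mean of 19.3 points (adjusted p = 9.4e-08, edgeR) mixes the sexes, and the gap between them was not read as purity. The Ikzf2 promoter was 1.76 points apart. All 6 T cell markers were called lower in T cells and 5 of 6 B cell markers were called higher in T cells, Pax5 alone missing the 20 points. The part of other cells in the values below was not tested. Bisulfite levels of a bulk sample do not separate fewer methylated cells from fewer methylated copies per cell. Where a pair of levels is given for a cell type, the female library comes first. Ranges in parentheses are 95% Wilson intervals, and where no read was methylated the level that 3 reads would give is stated as the limit. Both cover counting error only, since reads without molecular identifiers are not independent molecules. Read numbers of a stretch, tile or window are sums over its CpGs, so a read that covers several CpGs counts more than once. The ranges and limits are therefore narrower than the number of separate reads would give.

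Starts of these genes needed care. The outermost annotated start of Cd28 lies 29558 bases and that of Ctla4 22025 bases before the start of the principal transcript, and that of Cd226 lies 20460 bases before the principal start used here, 1 of 2. Positions below are therefore given from the principal transcript start. Within 1 kb of the outermost starts 5 of 8 tested promoters were called (1.37% of 20501 in the series), and within 1 kb of the principal starts 8 of 9 were called (1.55% of 26303), all higher in B cells. The latter definition was chosen after the values were seen. Without the female T or without the male T library, 1 of the 8 promoters at outermost starts passed the call, that of Cd5, without the male B library 3 did, and without the female B library 4 did, each of these higher in B cells. Calls over all promoters also fell, to 0.171% without the female T, 0.195% without the male T, 0.385% without the male B and 0.79% without the female B library. Without either T cell library the promoters of Icos, Cd2, Cd6 and Pdcd1 still differed by 19.6 to 48.6 points, at adjusted p of 0.0655 to 0.220 in edgeR. Gene bodies beyond 1 kb from the outermost start were called in 6 of 9 members, all higher in B cells, against 1.43% of 20353 bodies. Those of Cd28, Ctla4 and Cd226 therefore hold the principal start and bases before it. The differences were 64.6 points at Cd2, 43.1 at Thy1, 36.0 at Cd5, 27.9 at Cd28, 23.4 at Cd6 and 21.2 at Icos, the last falling to 19.8 points and out of the call without the female T library. The bodies of Cd226, Ctla4 and Pdcd1 passed the adjusted p with 15.6, 10.5 and 5.67 points, as did 42.8% of all tested bodies.

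**Figure D2:**
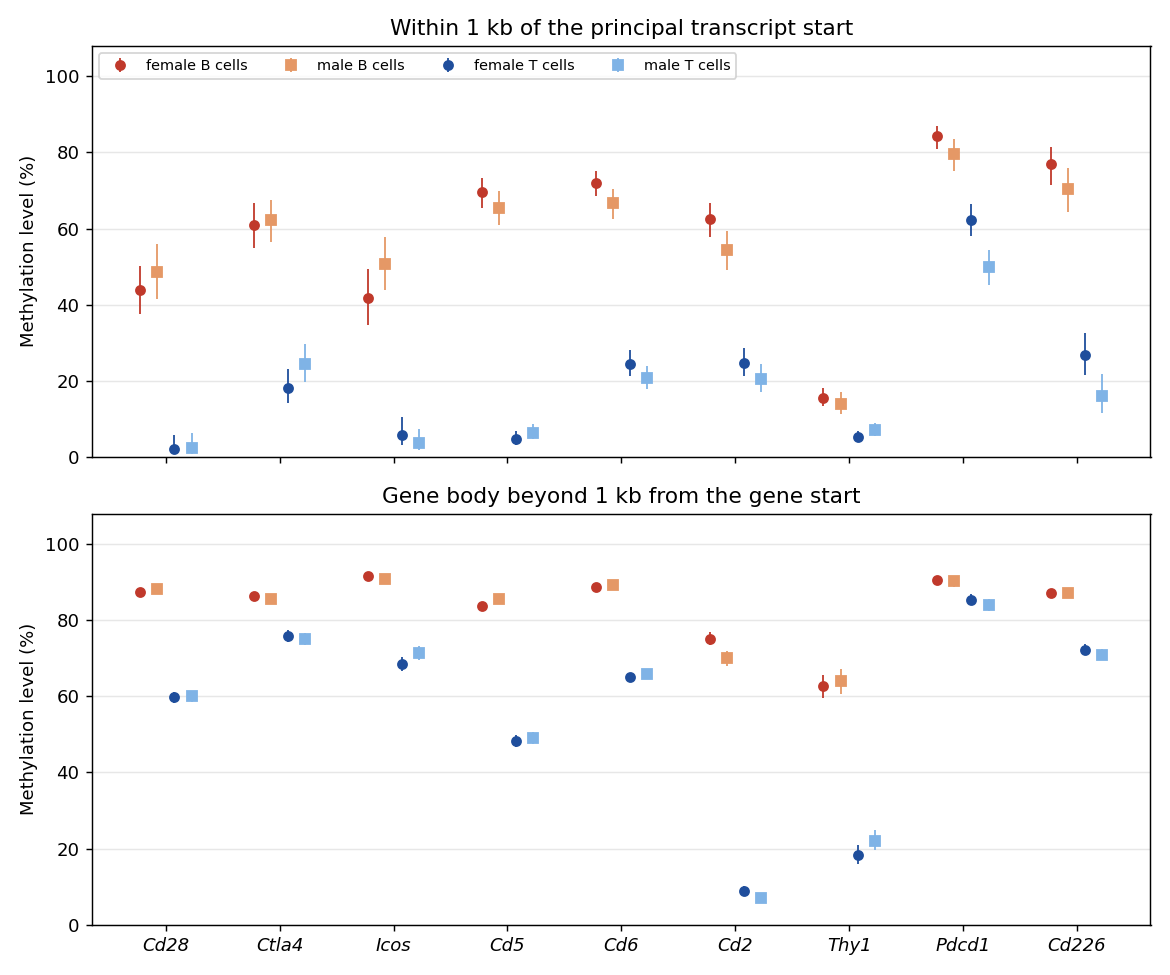
Methylation level (percent of reads, y axis) of each member in the 4 libraries, within 1 kb of the principal transcript start (top) and in the gene body beyond 1 kb of the outermost start (bottom); points are libraries and bars are 95% Wilson intervals of the read counts. B cell points lie above T cell points for each gene in both panels, with Thy1 close together at the start (5.26 to 15.5%) and Cd2 far apart in the body (7.07 to 75.1%).

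Cd28, the main costimulatory receptor, spans chr1:60716800-60773359 on the plus strand. Methylation was low in the 500 bases before its principal start in both cell types, and in B cells it was high further inside the gene and at the outermost start far upstream. Within 1 kb on either side of the principal start the difference was 44.1 points (adjusted p = 2.8e-33, edgeR). The 6 CpGs covered within 500 bases of that start were all upstream of it and averaged 3.12 to 16.0% in B cells, with no methylated read in T cells. From 500 to 1500 bases into the gene, 6 CpGs were at 96.8% and 97.9% in the female and male B cell libraries and at 0% of 47 and 67 reads in the T cell libraries, which allows up to 6.38% and 4.48%. The tile with the largest difference of any member, chr1:60747001-60748000 in intron 1, had 97.0% (89.8 to 99.2) in female and 97.6% (91.5 to 99.3) in male B cells. None of 39 female and 48 male T cell reads there was methylated, which allows a level of up to 7.69% and 6.25%. The stretch of this tile richest in CpGs, chr1:60747031-60747219, is shown on the plus strand with its CpGs in capitals, since it carried the widest gap between B and T cells:
Cd28 intron 1: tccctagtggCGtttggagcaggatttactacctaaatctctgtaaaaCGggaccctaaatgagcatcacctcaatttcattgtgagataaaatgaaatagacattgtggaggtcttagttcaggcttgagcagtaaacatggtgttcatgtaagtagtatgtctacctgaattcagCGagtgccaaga

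All 3 CpGs of that stretch were at 87.5 to 100% in B cells and at 0% in T cells, of 23 female and 38 male reads. Between the principal start and the end of Cd28 14 tiles were called, and the first 7 formed a run 0.64 to 10.6 kb after the start. This run pooled to 89.3% and 90.1% in female and male B cells and 11.3% and 11.6% in female and male T cells. Levels in T cells were higher further along the gene. Over 4 equal parts of the principal transcript the female T cell library had 4.78, 16.7, 55.4 and 67.6%, and the male T cell library had 3.21, 15.8, 52.9 and 73.4%, while both B cell libraries stayed between 81.8 and 95.9%. The B minus T difference was 86.8 points in the first of these parts and 24.8 points in the last.

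A separate run of 9 called tiles lay 24.6 to 35.6 kb after the Cd28 start, at and past its 3' end, where the annotation also places Gm11579, 2310016D23Rik and Gm37198. Its strongest tile, chr1:60776001-60777000, was at 98.9% and 97.6% in the B cells of females and males and at 7.92% and 7.89% in female and male T cells. Upstream of the principal start 3 of 30 tiles were called, of which chr1:60713001-60715000 was at 89.6 and 90.4% in B cells and 19.4 and 18.1% in T cells. The 2-kb window at the outermost start had 88.0 and 90.1% in B cells and 90.0 and 87.5% in T cells, a difference of 0.298 points (adjusted p = 0.982, edgeR).

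Ctla4, the inhibitory counterpart of CD28, spans chr1:60887000-60915832 on the plus strand. The 2-kb window at its principal start was at 61.0% (55.0 to 66.7) and 62.2% (56.5 to 67.5) in the B cells of females and males. In T cells it was at 18.2% (14.3 to 23.0) and 24.4% (19.8 to 29.7), so that the 4 intervals separate by cell type, and the difference was 40.3 points (adjusted p = 1.61e-22, edgeR). The RefSeq promoter of Ctla4 (GRCm38.p6, chr1:60908775-60909044, plus strand, 250 bases before to 20 after the start) is shown because each of its CpGs was free of methylation in T cells and partly methylated in B cells. CpGs are in capitals:
Ctla4 promoter: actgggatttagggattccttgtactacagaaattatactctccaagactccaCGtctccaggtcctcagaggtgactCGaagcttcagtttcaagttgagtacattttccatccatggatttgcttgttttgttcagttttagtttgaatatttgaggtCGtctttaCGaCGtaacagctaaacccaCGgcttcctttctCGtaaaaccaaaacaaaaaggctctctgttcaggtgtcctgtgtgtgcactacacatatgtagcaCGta

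The 8 CpGs of this stretch summed to 43.8% of 121 reads in female and 43.1% of 153 reads in male B cells, with single CpGs from 5.88 to 76.5%. None of the 128 female and 121 male T cell reads was methylated, which allows up to 2.34% and 2.48%. The 2 CpGs farthest upstream, at bases 54 and 79 of the stretch, were at 65.2 to 76.5% in B cells, and those at bases 161 and 189 were at 5.88 to 25.9%. RefSeq listed promoters for 3 of the 9 members.

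The Ctla4 gene body was measured from the outermost start, so it holds the principal start and the bases before it. It was at 86.4 and 85.6% in B cells and 76.0 and 75.0% in T cells, a difference of 10.5 points that passed the adjusted p (1.2e-07, edgeR) and missed the 20 points. The largest gaps lay upstream: chr1:60883001-60884000, 25.5 kb before the principal start, was at 94.6% and 93.7% in the B cells of females and males and at 24.3% and 21.0% in T cells. A neighbouring tile, chr1:60880001-60881000, which overlaps Gm38137, was at 90.5% and 91.1% in B cells and at 24.3% in both T cell libraries. A single tile 40.5 kb upstream, chr1:60868001-60869000, went the other way, with 23.6 and 23.9% in B cells and 44.1 and 56.5% in T cells. This last call was lost in limma.

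Icos, the inducible costimulator, spans chr1:60977927-61000320 on the plus strand. The 4 CpGs in the 300 bases before the start summed to 11.1% in both B cell libraries and to 0% of 70 and 89 reads in the T cell libraries, which allows up to 4.29% and 3.37%. In B cells 1 of them, 174 bases before the start, was above 20% in both libraries, at 45.5% in males, and the other 3 were at 0 to 6.67%. The first 500 bases after it were at 43.3% and 51.1% in the B cells of females and males and at 0% of 66 and 91 reads in T cells, which allows up to 4.55% and 3.30%. The tile chr1:60978001-60979000, across exon 1 and intron 1, was at 71.2% (57.7 to 81.7) and 73.4% (61.5 to 82.7) in the B cells of females and males. None of 47 female and 46 male T cell reads was methylated, which allows up to 6.38% and 6.52%. A stretch of 48 bases in intron 1 (chr1:60978176-60978223, plus strand) held 4 of its CpGs, shown in capitals:
Icos intron 1: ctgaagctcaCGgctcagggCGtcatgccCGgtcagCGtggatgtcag

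Those 4 CpGs were at 65.0% of 40 reads and 69.8% of 53 reads in the B cells of females and males and at 0% of 42 and 36 reads in T cells. The Icos promoter as a 2-kb window differed by 41.6 points (41.9 and 50.8% in B cells, 5.66 and 3.74% in T cells, adjusted p = 3.56e-30, edgeR). With CpGs of at least 10 reads it differed by 12.4 points and was not called. Deeper in intron 1, chr1:60990001-60991000, which overlaps Gm37039, was at 79.8 and 76.9% in B cells and 9.18 and 5.02% in T cells. In the last of 4 equal parts of the gene the levels were 2.24 points apart, at 94.0 and 94.2% in B cells and 91.2 and 92.5% in T cells.

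**Figure D3:**
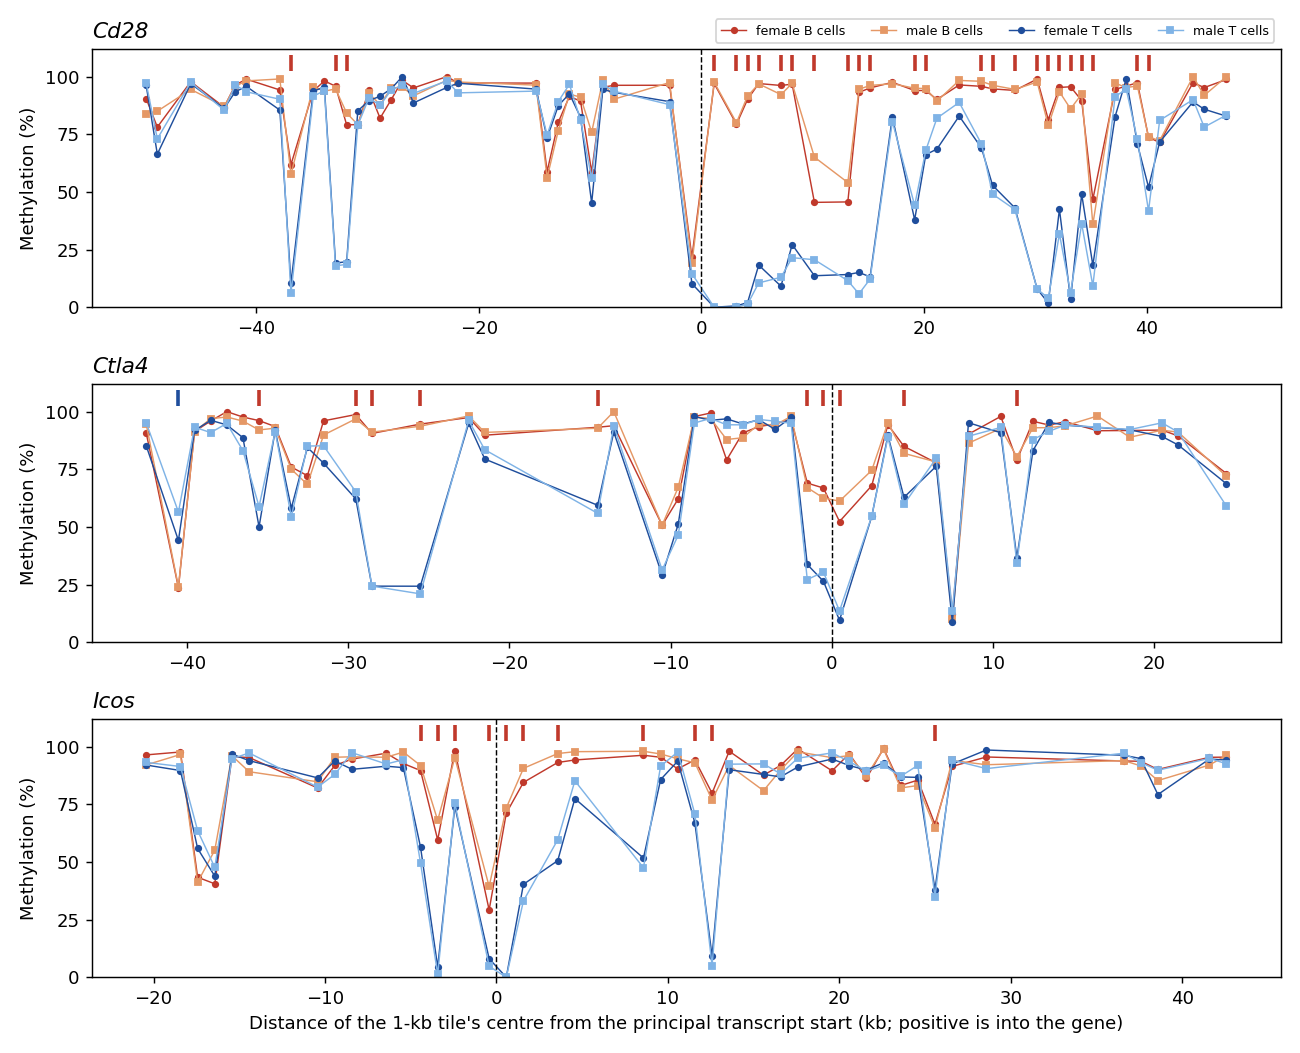
Methylation level (percent) of 1-kb tiles against distance from the principal transcript start (kb, positive into the gene; dashed line at 0) for Cd28, Ctla4 and Icos, one line per library, with called tiles marked above (red, higher in B cells; blue, higher in T cells). T cell lines drop to 0% just after the Cd28 and Icos starts, where B cell lines stand at 71.2 to 97.6%, and a second low block follows the 3' end of Cd28.

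Pdcd1, encoding PD-1, lies far from the other 3 on chromosome 1, at chr1:94038305-94052553 on the minus strand. It had the fewest called tiles, and T cells had intermediate levels when the 2-kb window around its start was summed. The 2-kb window at the start was at 84.2% (80.9 to 87.1) and 79.7% (75.2 to 83.5) in the B cells of females and males. In T cells it was at 62.4% (58.0 to 66.5) and 49.8% (45.2 to 54.4), a difference of 25.9 points (adjusted p = 4.01e-13, edgeR). This call was lost without the sex term alone. It was also lost without each library in turn (19.6 to 32.2 points), in fits that carried no sex term either. Unweighted over CpGs the difference was 21.4 points. The first 500 bases after the start were lower in T cells than the rest, with 58.2 and 46.8% in B cells against 6.52 and 10.2% in T cells over 5 CpGs. The 2 largest tile differences lay past the 3' end: chr1:94032001-94033000, at 85.4 and 90.3% in B cells and 49.3 and 45.6% in T cells, and chr1:94036001-94037000, with a difference of 31.0 points. The body differed by 5.67 points.

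Cd5 encodes an inhibitory modulator of receptor signalling that is also carried by a subset of B cells, and spans chr19:10717116-10739002 on the minus strand. Methylation was at 3.12% or less in all libraries over the 300 bases before its start and differed between cell types from just after it. Its RefSeq promoter (GRCm38.p6, chr19:10738955-10739224, minus strand, 250 bases before to 20 after the start) is shown because no read was methylated there in any library, with CpGs in capitals. Below it is the intron 1 stretch richest in CpGs from the tile with the largest difference (chr19:10737511-10737651, minus strand), where the cell types were far apart:
Cd5 promoter: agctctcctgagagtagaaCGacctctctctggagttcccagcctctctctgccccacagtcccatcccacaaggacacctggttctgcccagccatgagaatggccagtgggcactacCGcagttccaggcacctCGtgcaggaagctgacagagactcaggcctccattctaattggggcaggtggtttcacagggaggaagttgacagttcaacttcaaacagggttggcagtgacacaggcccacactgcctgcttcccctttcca
Cd5 intron 1: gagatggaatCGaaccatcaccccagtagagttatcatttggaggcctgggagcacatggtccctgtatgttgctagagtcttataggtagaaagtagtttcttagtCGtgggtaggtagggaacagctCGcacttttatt

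All 3 promoter CpGs were at 0% in each of the 4 libraries, of 57 to 86 reads, which allows up to 3.49 to 5.26%. The 3 intronic CpGs were at 91.7% and 93.9% in the B cells of females and males and at 6.12% and 2.22% in T cells. Between these, the 8 CpGs of the first 500 bases after the start were at 80.4 and 72.4% in B cells and 0.714 and 5.10% in T cells. Over bases 500 to 1500 the gap widened to 93.5 and 95.2% against 3.90 and 4.05%. The printed promoter held the letters GGAAGT (the core bound by ETS factors, either strand) once, as did 21.7% of all 32851 RefSeq promoters trimmed the same way, and neither printed promoter held TGTGGT (RUNX, in 15.1% of promoters) or CTTTGA (TCF/LEF, in 14.7%).

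Beyond the start, 10 called tiles in a row covered the first 10 kb of Cd5, at 89.6 and 90.3% in B cells and 27.0 and 27.3% in T cells. The tile at the start, chr19:10738001-10739000, was at 88.0 and 85.8% in B cells and 2.31 and 5.01% in T cells. Methylation in T cells was higher in the later parts of the gene, with 19.4, 41.0, 68.7 and 62.0% over its 4 equal parts in the female and 19.0, 39.6, 68.9 and 65.7% in the male library. A low block also lay 13.5 kb upstream, where chr19:10752001-10753000 in A430093F15Rik was at 88.8 and 91.2% in B cells and 7.45 and 7.14% in T cells. One tile in the neighbouring gene Vps37c, chr19:10700001-10701000, went the other way (60.5 and 69.8% in B cells, 87.8 and 86.4% in T cells). Its call was lost in limma and without the female B library.

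Cd6, the scavenger-receptor partner of Cd5, spans chr19:10789341-10830058 on the minus strand and had the most called tiles. Its first 500 bases, with 13 CpGs, were at 45.0 and 40.7% in B cells and 0.380 and 0.293% in T cells. Over bases 500 to 1500 the levels were 94.3 and 91.4% in B cells and 6.16 and 5.58% in T cells. The largest difference stood at chr19:10827001-10828000 in intron 1, with 96.3% (92.6 to 98.2) and 92.7% (87.7 to 95.8) in the B cells of females and males and 13.6% (9.28 to 19.4) and 13.3% (8.86 to 19.5) in T cells. The stretch of this tile richest in CpGs (chr19:10827442-10827636, minus strand) and, for contrast, the corresponding stretch of the tile with the largest difference towards T cells (chr19:10844243-10844412, minus strand, in intron 1 of the neighbouring gene Slc15a3) are shown with CpGs in capitals:
Cd6 intron 1: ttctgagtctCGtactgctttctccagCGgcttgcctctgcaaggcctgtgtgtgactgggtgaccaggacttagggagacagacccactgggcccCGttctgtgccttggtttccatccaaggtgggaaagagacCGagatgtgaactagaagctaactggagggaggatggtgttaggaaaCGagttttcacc
Slc15a3 intron 1: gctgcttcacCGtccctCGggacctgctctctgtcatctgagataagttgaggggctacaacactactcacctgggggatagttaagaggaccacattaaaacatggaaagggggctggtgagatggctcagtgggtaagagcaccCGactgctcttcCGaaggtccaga

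The 5 CpGs in the Cd6 stretch were at 85.7 to 100% in B cells and at most 22.2% in T cells. In the Slc15a3 stretch the CpGs at bases 11 and 18 were at 0 to 16.7% in B cells and 97.1 to 100% in T cells, while those at bases 147 and 159 were at 64.3% or more in all libraries. The direction turned within the Cd6 window: 5 called tiles 10.9 to 15.9 kb upstream of Cd6, over the 5' part of Slc15a3, a transporter of histidine and peptides, pooled to 24.9 and 26.3% in B cells and 63.0 and 60.3% in T cells. Among them chr19:10844001-10845000 was at 49.3 and 51.2% in B cells and 96.2 and 95.6% in T cells. These 5 were among the 8 member tiles called higher in T cells.

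Inside Cd6 the calls covered most of the first 19 kb, in runs of 12 and 6 tiles, and the T cell level was 33.0 and 32.6% in the first of 4 equal parts and 77.6 and 78.7% in the last. B cells stayed between 85.0 and 89.5% over these parts. The longest run of any member lay past the 3' end of Cd6, between it and Cd5: 17 called tiles over 19.0 kb at chr19:10771001-10790000, in part overlapping A430093F15Rik, at 81.3 and 81.7% in B cells and 31.7 and 33.5% in T cells. Of the 20 tiles tested downstream of Cd6 16 were called.

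Cd2, whose product binds CD48 in mice, spans chr3:101275899-101287939 on the minus strand, and its whole body was low in T cells. All 12 tiles in the body and the tile at the start were called, and together with 2 tiles just past the 3' end they formed 1 run of 15 tiles, at 72.9 and 68.2% in B cells and 11.9 and 11.4% in T cells. As a gene body it was at 75.1% (73.4 to 76.8) and 70.0% (68.0 to 72.0) in the B cells of females and males and at 8.95% (7.86 to 10.2) and 7.07% (6.09 to 8.19) in T cells. This was the widest body difference among the members, 64.6 points (adjusted p = 3.37e-17, edgeR). The largest tile difference lay in intron 2 (chr3:101284001-101285000), with 90.5 and 89.6% in B cells and 2.77 and 3.64% in T cells. Its densest stretch (chr3:101284301-101284491, minus strand) is shown because B cell levels varied within it, on 11 to 21 reads per CpG and without a test:
Cd2 intron 2: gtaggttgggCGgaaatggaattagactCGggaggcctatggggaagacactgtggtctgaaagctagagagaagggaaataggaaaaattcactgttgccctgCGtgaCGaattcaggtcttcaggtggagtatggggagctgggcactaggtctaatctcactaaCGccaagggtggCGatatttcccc

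Its 6 CpGs, in capitals, ranged from 50.0 to 100% in B cells and from 0 to 14.3% in T cells, and summed to 86.7 and 84.3% in B cells and 3.79 and 0% in T cells, the last of 85 reads, which allows up to 3.53%. The 3 CpGs in the 300 bases before the Cd2 start were at 0% in all 4 libraries, on only 19 to 25 reads, which allows up to 12.0 to 15.8%. The first of 4 equal parts of the gene was at 67.6 and 57.6% in B cells and 1.37 and 0.929% in T cells, and the last at 71.6 and 69.0% and 15.2 and 12.5%, so that T cells stayed low to the end of the gene. In the last such part of Cd28, Cd5 and Cd6 T cells were at 62.0 to 78.7%, and this difference between genes was not tested. Upstream, chr3:101292001-101293000 went the other way, with 41.3 and 35.8% in B cells and 65.3 and 72.5% in T cells, a call lost in limma.

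Thy1, the pan-T cell surface antigen of mice, spans chr9:44043384-44048579 on the plus strand and has a start denser in CpGs than the other members, with 54 covered CpGs within 1 kb against 13 to 31 at the others. That start was low in both cell types. Of 38 CpGs within 500 bases of it, 33 averaged 20% or less in B cells and 37 did so in T cells, and the first 500 bases were at 2.32 and 2.89% in B cells and 0% of 521 and 470 reads in T cells, which allows up to 0.576% and 0.638%. The 2-kb window differed by 8.54 points, which passed the adjusted p (2.93e-06, edgeR) and missed the 20 points. The difference opened from 500 bases into the gene, where 22 CpGs were at 50.7 and 56.9% in B cells and 1.19 and 0.504% in T cells. The body beyond 1 kb was at 62.7 and 63.9% in B cells and 18.4 and 22.1% in T cells, a difference of 43.1 points.

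The largest Thy1 tile difference, 65.9 points at chr9:44045001-44046000, crossed into exon 2, which carries the start codon. The stretch of its CpGs (chr9:44045868-44046010, plus strand) runs past the tile's end, with 1 of its 4 CpGs, at position 44046002, outside the tile. It is shown with CpGs in capitals because T cells kept part of their methylation there:
Thy1 intron 1 and exon 2: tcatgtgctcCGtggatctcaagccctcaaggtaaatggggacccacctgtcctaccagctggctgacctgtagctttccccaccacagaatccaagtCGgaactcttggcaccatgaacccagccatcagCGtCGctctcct

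Its 4 CpGs were at 95.8% in both B cell libraries and at 33.8% of 80 reads and 42.2% of 83 reads in female and male T cells. Upstream of Thy1, 12 of 15 tiles were called, all higher in B cells and all overlapping the annotated gene Gm39323. Among these chr9:44033001-44034000, 9.88 kb before the start, was at 84.4 and 89.7% in B cells and 26.9 and 27.1% in T cells. Downstream 1 of 13 tiles was called.

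**Figure D4:**
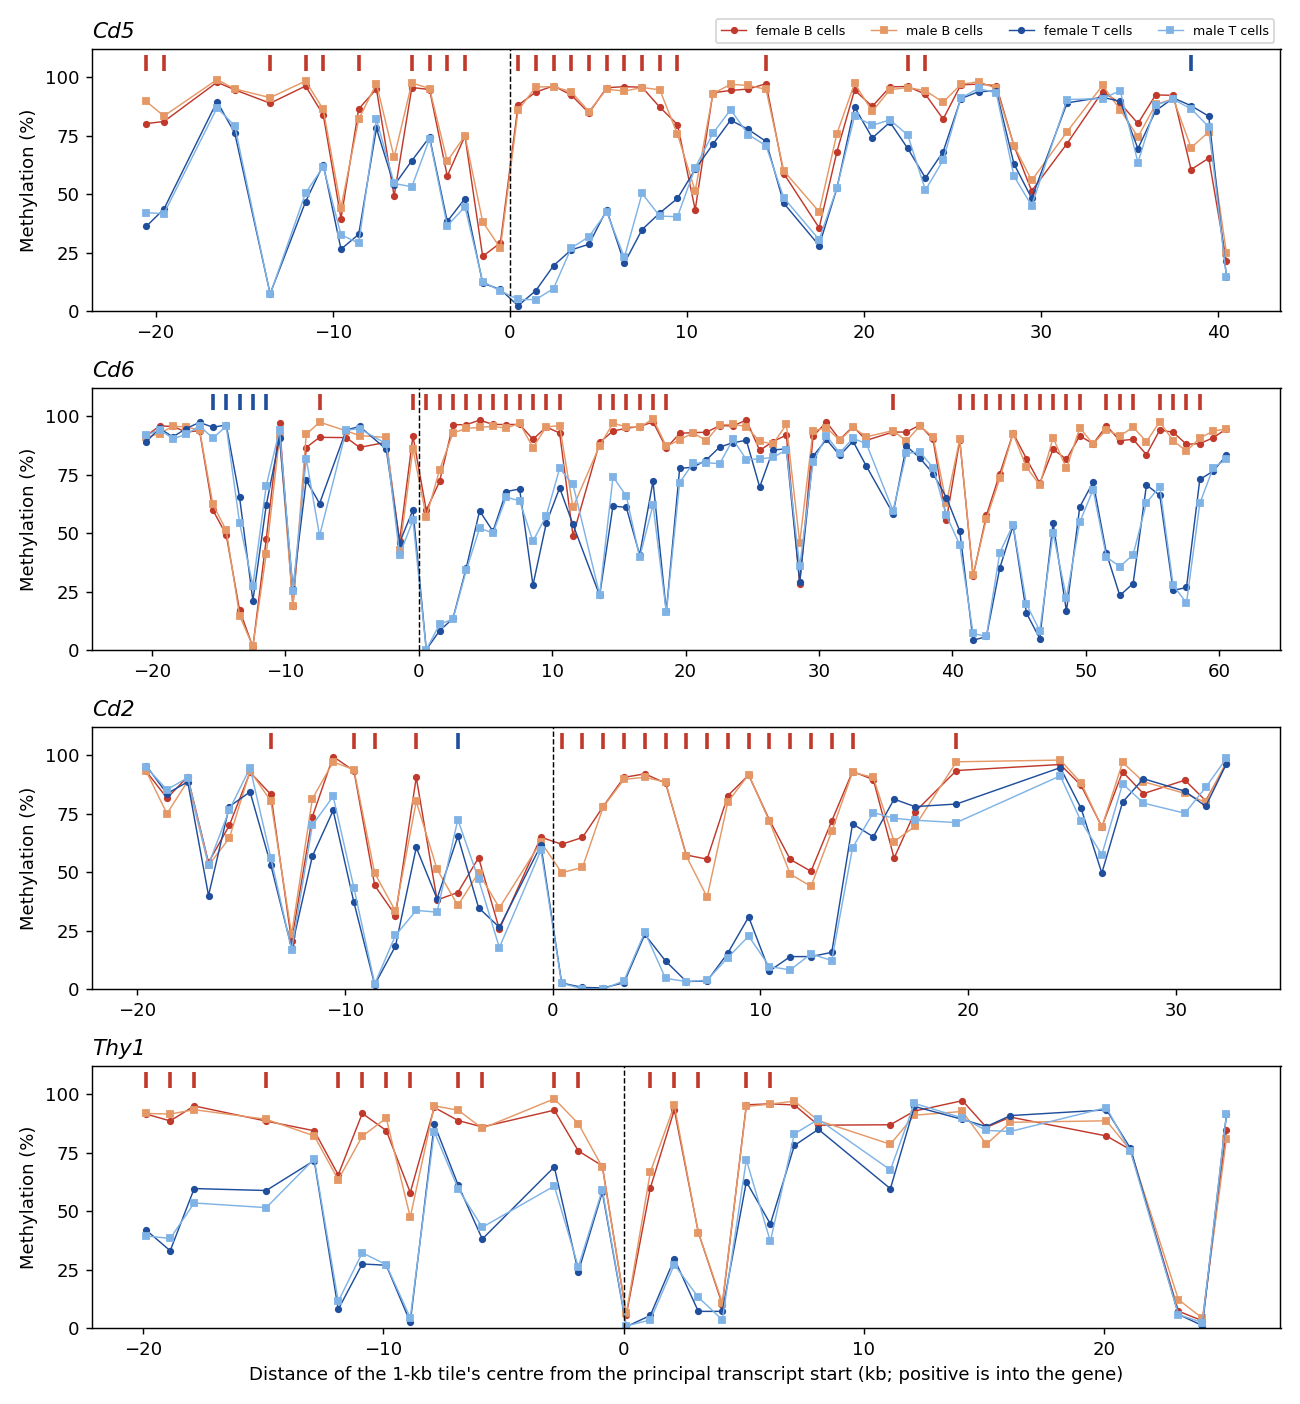
Methylation level (percent) of 1-kb tiles against distance from the principal transcript start (kb, positive into the gene; dashed line at 0) for Cd5, Cd6, Cd2 and Thy1, one line per library, with called tiles marked above (red, higher in B cells; blue, higher in T cells). T cell lines stay low through the whole of Cd2, are higher towards the later parts of Cd5 and Cd6, and lie above the B cell lines upstream of Cd6, in Slc15a3.

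In the 300 bases before the start the levels differed from gene to gene. Cd28, Cd5 and Cd2 were at 0 to 8.33% in B cells and at 0 to 1.54% in T cells there. For Cd28 this rests on 2 CpGs with 21 to 34 reads, so that 0% in T cells allows up to 14.3%. B cells were at 11.1% in both libraries at Icos, at 16.5 and 16.8% at Thy1, at 33.3 and 35.3% at Cd226 and at 49.0 and 44.7% at Ctla4. T cells were at 2.66 and 5.04% at Thy1, and no read was methylated in T cells at the other 3, which allows up to 2.91 to 4.29%. Pdcd1 had no covered CpG in that stretch, and the 2 CpGs of Cd6 there were at 88.2 and 89.5% in B cells and 37.9 and 36.0% in T cells. From 500 to 1500 bases into the gene the B minus T difference was 97.3 points at Cd28, 90.4 at Cd5, 87.0 at Cd6, 86.1 at Cd226, 59.9 at Icos, 52.9 at Thy1, 49.1 at Ctla4, 36.9 at Cd2 and 16.8 at Pdcd1. The stretches of bases 500 to 1500 hold 3 to 22 CpGs each and those before the start 2 to 9. Both kinds were chosen after the values were seen, so they carry no test.

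Of 36 other genes of costimulation, 7 promoters were called, all higher in B cells, where 1.37% of all tested promoters were called. Among 12 further receptors 4 were called, including Tigit, an inhibitory receptor that shares ligands with CD226, at 86.6 and 87.2% in B cells and 46.8 and 42.7% in T cells. Cd27, a costimulatory receptor of the TNF receptor family, was at 34.7 and 38.3% in B cells and 0.173 and 0.180% in T cells, and Cd96 differed by 30.4 points. Among 10 intracellular partners 3 were called, with Ptpn6, which encodes the phosphatase SHP-1, at 50.1 and 50.3% in B cells and 22.0 and 22.2% in T cells. At principal transcript starts 1 of 14 starts of these partners was called, that of Lcp2 (1.55% of principal starts in the series), and the differences at Ptpn6 and at both starts of Pik3cd were 1.01, 10.3 and 7.03 points, so the calls of Ptpn6 and Pik3cd held at their outermost starts alone. None of 14 ligand promoters, among them Cd80, Cd86 and Icosl, was called by edgeR or by limma. Their differences ran from -1.64 to 9.43 points, and 7 had an unadjusted p under 0.05 in edgeR, of which 4 passed the adjusted p. Over all tested promoters these shares were 30.7% and 19.9%. The median promoter difference was 4.55 points over the 36 genes and 30.8 points over the 8 tested members, beside 0.97 points over all tested promoters. In gene bodies 4 of the 36 were called (1.43% in the series), led by Cd27 at 64.7 points.

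All 167 called member tiles had the same sign in the female pair and in the male pair of libraries, and 155 reached 20 points within each sex, which follows in part from calling on the mean of both. No member tile was called by edgeR or limma between females and males, against 0.0868% of tiles in the series, with 29 of 433 at an unadjusted p under 0.05 in edgeR (5.15% of all tested tiles) and 15 in limma. In 1 tile, chr3:101294001-101295000 upstream of Cd2, the adjusted p passed (0.000807, edgeR), with 90.5 and 60.5% in female B and T cells and 80.2 and 33.7% in male B and T cells, 18.6 points higher in females on average. By neither tool was the B minus T difference of a member tile called as differing between the sexes (0.00157% of tiles in the series), with 6 of 433 at an unadjusted p under 0.05 in edgeR (4.36% of all tested tiles) and 10 in limma. These fits carried no sex term, so sex differences entered their error. The gap between the female and male differences reached 22.3 points.

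**Figure D5:**
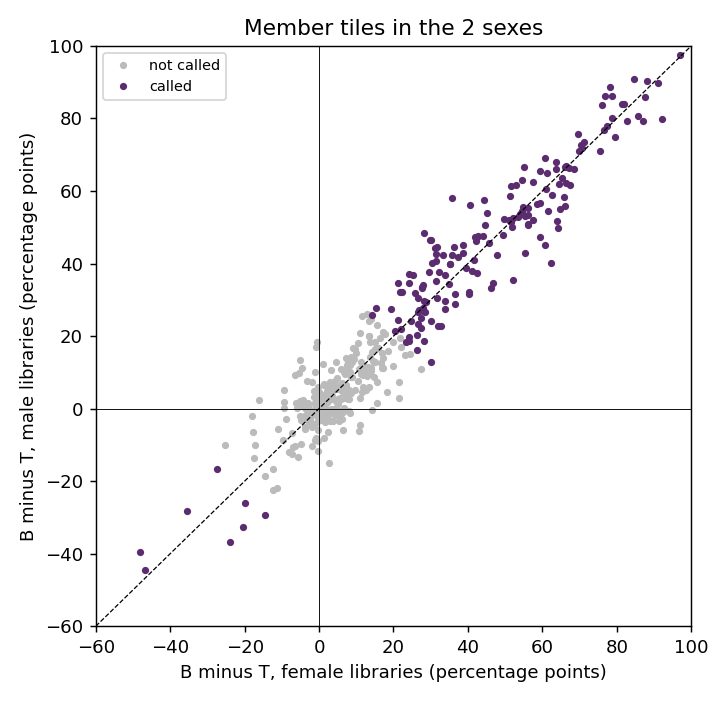
Difference between B and T cell methylation (percentage points) in the female libraries (x axis) against the male libraries (y axis) for each tested tile of the 9 windows; purple points were called and the dashed line marks equal differences. Called points follow the dashed line, with 159 higher in B cells and 8 higher in T cells, and all 167 have the same sign in both sexes.

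Cd226, encoding the activating receptor DNAM-1, is the longest member and lies on chromosome 18 at 89176967 to 89272229 on the plus strand. Its outermost start had too few covered CpGs or reads to test. Within 1 kb of the principal start the levels were 76.9% (71.5 to 81.5) and 70.4% (64.2 to 76.0) in the B cells of females and males and 26.6% (21.5 to 32.5) and 16.0% (11.6 to 21.6) in T cells, a difference of 52.3 points (adjusted p = 4.74e-34, edgeR). The tile at that start was at 63.5 and 59.0% in B cells and at 0.820% of 122 and 0% of 137 reads in T cells, and a tile 48.1 kb into the gene, in intron 3, was at 89.8 and 95.6% in B cells and 31.2 and 39.2% in T cells. The body as a whole differed by 15.6 points and was not called. Only 29 tiles of this window could be tested, and 6 with CpGs of at least 10 reads.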

How the data were processed

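Whole genome oxidative bisulfite libraries of B and T cells were processed by the submitters, whose processing notes name Trim Galore, FastQC, Bismark 0.13.1 and mm10. For each CpG the authors deposited a methylation level, which is a fraction of reads given to 3 decimals, and a count of reads, listing only CpGs with at least 5 reads. Methylated reads were the whole number below their product, and this number over the reads, rounded up to 3 decimals, gave back the deposited level within 1e-06 at 100% of CpGs. At the 744 to 1146 CpGs per library with 1000 or more reads the level does not fix the count. Genes came from GENCODE M21. Methylated and unmethylated reads were summed over 1-kb tiles, promoters (within 1 kb of the outermost start) and gene bodies beyond it, with at least 5 CpGs and 20 reads in every library. B and T cells were compared across all regions with edgeR 4.0.16 (quasi-likelihood, R 4.3.3), with a term for each library and for sex, and common dispersion from 20000 regions. With 4 libraries 1 residual degree of freedom was left, and for tiles and promoters the prior degrees of freedom were infinite. A second fit tested whether the cell type difference differed between the sexes. It carried the product of cell type and sex in place of the sex term, so sex differences entered its error. Regions with an adjusted p under 0.05 and 20 points were called. Alternatives were limma 3.58.1 on log2 ratios of methylated to unmethylated reads plus 1, other thresholds, filters and sizes, no sex term, and leaving out each library. Fits leaving out a library carried no sex term, and those of the sex comparison no cell type term. The fit was also run on simulated tiles with no sex effect, not on promoters or gene bodies, and the outcome is not given here.

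All 9 genes, up to 3 called tiles per gene and direction, runs of neighbouring called tiles and promoters of up to 4 pathway genes per direction are named. Members, pathway and marker lists were chosen with earlier results of these data known. The stretches of 300 bases before and 1500 after the starts and the 4 equal parts of genes were added after values were seen. Reads per library and at each value set the precision given.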

Additional observations from a re-analysis of the deposited data

How the results depend on the processing

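The count of 167 called tiles in the windows was 116 to 249 under the alternatives with 1-kb tiles or tiles of 500 bases and 168 to 171 without single libraries, but 52 of 141 with tiles of 5 kb, where fewer tiles were tested. The 5 promoters called became 8 of 9 at principal transcript starts, a choice made after the values were seen. Some of the 5 were lost without single libraries, in fits that also carried no sex term. Where lost, they differed by 19.6 to 48.6 points. Gene bodies called numbered 6, 3 at 30 points and 5 to 6 without single libraries. The body of Icos was lost without the female T library, at 19.8 points. Between the sexes 0 tiles were called, and 1 without a minimum difference. Fits of sex without single libraries cannot decide this, because they carried no cell type term and left that difference in their error. In their cell type contrast 0 tiles differed between the sexes under each alternative run. No called difference reversed. The uncalled difference of the Cd28 promoter at its outermost start, 0.30 points, was -0.77 points without the male B and -0.93 points without the male T library. The 5 called promoters stayed called in 41 of 55 alternative values, and the 3 uncalled ones were called in 4 of 33. The 6 called bodies stayed called in 50 of 54, and the 3 uncalled ones were called in 3 of 27, each without a minimum difference. With the minimum difference kept, 216 of 220 values for named tiles stayed called, and of 117 tile counts per gene 93 stayed within 1.5 times. Leaving out a library leaves 1 library in an arm, which is then assumed to vary like the others. Those fits also carried no sex term, so what they changed mixes the library and the term. The depth of 14 to 17 reads per CpG limits single CpGs. The fit compared B and T cells within sex, and without the sex term 167 tiles, 4 promoters (Pdcd1 was lost) and 6 bodies were called. Replicate numbers in the labels are not shared between groups, so they gave no block.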

Other observations

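The stretches between neighbouring windows were described by the same tiles, with no test. The 10.3 kb between the Cd5 and Cd6 windows held 7 tiles with a median difference of 47.3 points (15.8 to 77.5), and 6 of them were at least 20 points higher in B cells, so that the methylation difference ran on from one gene's window to the other's. Between the Cd28 and Ctla4 windows, 73.6 kb held 45 tiles with a median difference of 4.85 points, of which 9 were at least 20 points higher in B cells and 2 at least 20 points higher in T cells. Between the Ctla4 and Icos windows, 22.1 kb held 20 tiles with a median of 3.55 points, and 3 were at least 20 points higher in B cells.

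Starts of the members held fewer covered CpGs than the median start, with Thy1 close to it. Within 1 kb of the principal starts 13 to 54 CpGs were covered, the most at Thy1, where the median over all principal starts was 59. The observed to expected CpG ratio was 0.19 to 0.38, the highest at Thy1, and was not computed over all starts.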
